A study of Homo sapiens with 6 samples.

Results

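Kinesins are motor proteins that move along microtubules, and their messenger RNAs were followed in LN229 cells, an established human glioblastoma line, with and without overexpression of HSD52, a long non-coding RNA gene. The members were the protein-coding genes of the deposited table with a KIF or KIFC symbol (a number and at most a letter or number after it), the adaptor gene KIFAP3 and the light chain genes KLC1, KLC2 and KLC4, which gave 46 genes of 58735 in the table. Of these, 15 were grouped by their known role as mitotic, 17 as transport and 14 as ciliary or other kinesins. The group labelled HSD52_OE held 3 libraries of LN229 cells with HSD52 overexpression, and the control group held 3 libraries of LN229 cells labelled wild type. No empty vector, selection or clone is named in the labels for either group, and nothing in them shows that replicates were separate cultures, so each p-value reflects only how much these libraries vary, and that variation may be technical. The labels' protocols describe poly-T selection of messenger RNA, random priming and Illumina sequencing.

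A kinesin uses the energy of ATP hydrolysis in its motor domain to step along, or to take apart, a microtubule. Mitotic kinesins build the bipolar spindle, move and align chromosomes, and organise the central spindle where the cell divides. Their genes are switched on late in the cell cycle, and many of their promoters carry a cell cycle homology region, bound by the DREAM and MuvB complexes, downstream of boxes bound by NF-Y. Transport kinesins run outside mitosis as well and carry vesicles, endosomes, mitochondria and ciliary cargo, and kinesin-1 does so as heavy chains joined to light chains. Dividing glioma cells make the mitotic motors in bulk, while several transport motors are best known from neurons.

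The promoters are shown first because the mitotic and transport genes differ in the motifs they hold. The RefSeq table (GRCh38.p14; the files name the build hg38) held promoters, from 250 bases before to 50 bases after the start, for 36 of the 46 members. It had none for KIF5A, KLC2, KLC4, KIF13B, KIF19, KIF27, KIF21B, KIF26B, KIFC2 and KIFC3. Searched were the cell cycle homology region as TTTGAA, its palindromic variant TTCGAA, and the NF-Y box CCAAT, each on both strands. No motif overlapped another. Some genes have several starts, and a gene was counted where any of its promoters held the motif. The cell cycle homology region was in 10 of 15 mitotic genes and in 1 of 13 transport genes, KIF5B, against 18.2% of the 27305 genes in the table and 15.8% of the protein-coding ones. An NF-Y box was in 11 of 15 mitotic and 4 of 13 transport genes (KIF5B, KIF5C, KIF3B and KIF1B). It was in 39.7% of all genes and 42.1% of the protein-coding ones. The variant, in 1.82% of all genes, was found in KIF22 among the mitotic kinesins, as 1 site in both of its promoters, and in KIF24 among the ciliary ones. Counted by single promoters, the region was in 10 of 16 mitotic and 1 of 18 transport promoters, against 15.2% of all 35116 promoters, and the NF-Y box in 11 of 16 and 5 of 18, against 34.6%. A match is a run of letters in a window and does not show that a factor binds there.

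The last 100 bases before the RefSeq start are given 5′ to 3′ on the gene's strand, with motif matches in capitals. KIF11, KIF4A, KIF23 and KIF18A are mitotic genes that rose and hold both motifs. KIF20A rose with NF-Y boxes only, and KIF15 holds the cell cycle homology region and did not pass the test. KIF3C and KIF16B are transport genes that fell and hold none of the motifs. KIF5C, a transport gene that also fell, holds an NF-Y box and is not shown. The windows lie at chr10:92593030-92593129 (plus strand), chrX:70290004-70290103 (plus strand), chr15:69414249-69414348 (plus strand), chr11:28108157-28108256 (minus strand), chr5:138179012-138179111 (plus strand), chr3:44761694-44761793 (plus strand), chr2:25982498-25982597 (minus strand) and chr20:16573449-16573548 (minus strand). In the deposited table KIF4A, KIF23, KIF18A, KIF20A, KIF15 and KIF3C begin upstream of these RefSeq starts.
KIF11: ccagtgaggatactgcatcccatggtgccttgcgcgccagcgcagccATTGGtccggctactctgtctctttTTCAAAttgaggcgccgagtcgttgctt
KIF4A: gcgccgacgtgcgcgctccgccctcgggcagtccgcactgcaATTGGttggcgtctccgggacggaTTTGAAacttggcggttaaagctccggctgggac
KIF23: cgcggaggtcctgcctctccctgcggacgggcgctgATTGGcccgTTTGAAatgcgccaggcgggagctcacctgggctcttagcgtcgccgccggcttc
KIF18A: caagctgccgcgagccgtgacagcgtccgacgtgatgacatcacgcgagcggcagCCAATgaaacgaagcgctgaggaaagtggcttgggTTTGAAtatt
KIF20A: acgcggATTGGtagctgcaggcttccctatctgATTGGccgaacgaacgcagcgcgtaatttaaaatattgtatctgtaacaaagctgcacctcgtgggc
KIF15: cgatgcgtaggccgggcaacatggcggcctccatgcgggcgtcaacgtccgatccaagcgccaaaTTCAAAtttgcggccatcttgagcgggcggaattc
KIF3C: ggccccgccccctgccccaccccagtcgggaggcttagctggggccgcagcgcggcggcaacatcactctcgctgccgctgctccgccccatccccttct
KIF16B: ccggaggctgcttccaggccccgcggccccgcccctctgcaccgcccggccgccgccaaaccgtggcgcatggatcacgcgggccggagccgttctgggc

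In the mitotic genes the cell cycle homology region lay close to the start. Its first base was 28 bases before the start in KIF11, 34 in KIF4A, 55 in KIF23, 10 in KIF18A and 35 in KIF15. In KIF14, KIF18B, KIF4B and KIFC1 it lay within the first 5 bases after the start, and KIF20B had matches 24 and 30 bases after it. The match of KIF5B was 140 bases upstream. Among the mitotic kinesins tested, the region was in 6 of the 9 that rose and in 3 of the 4 that did not pass the test. Outside the members it was in 17 of 26 G2/M genes with a promoter in the table and in 13 of 16 partners of mitotic kinesins. Of 26 G1/S and replication genes 2 carried it. The NF-Y box was less distinctive, in 16 of these 26 G1/S genes and in 20 of the 26 G2/M genes.

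**Figure D1:**
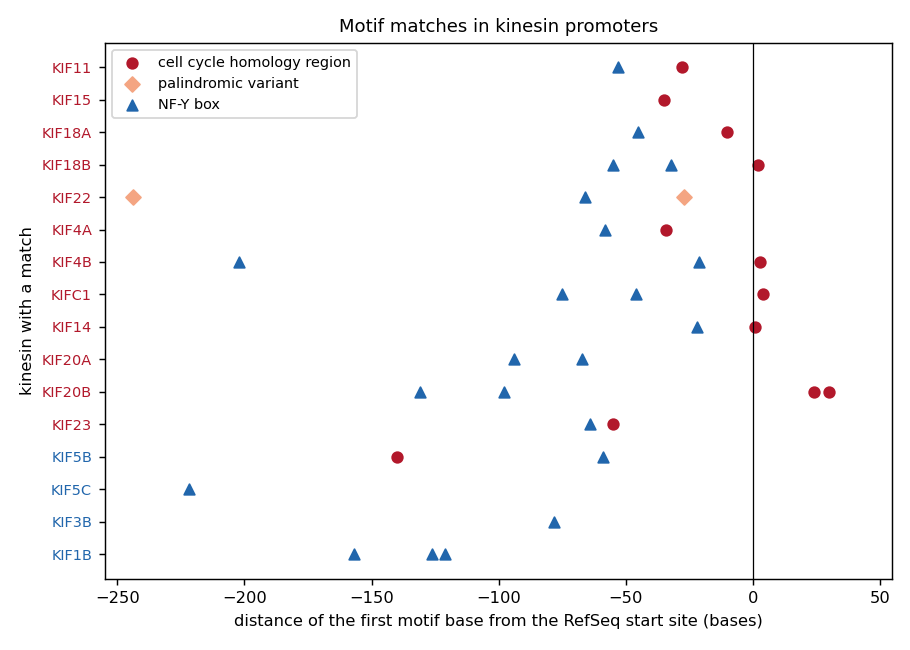
Motif matches in the promoters of mitotic (red names) and transport (blue names) kinesins with at least 1 match. The horizontal axis is the distance in bases of the first motif base from the RefSeq start of its promoter, negative upstream, and each mark is a match on either strand. Matches of the cell cycle homology region lie from 55 bases before to 30 bases after the start in the mitotic genes and 140 bases before it in KIF5B.

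The overexpressed gene checked the labels. HSD52 was counted 11, 7 and 12 times in controls and 1252, 1336 and 1327 times under overexpression, with a log2 fold change of 6.89 ± 0.15 (SE, edgeR adjusted p = 8.95e-14). Library totals ran from 17777157 to 18917790 counts, so that 1 CPM (the count scaled to library size, with TMM factors) stood for 17.1 to 19.7 counts. The 8 glioma markers (VIM, NES, CD44, S100B, SOX2, EGFR, OLIG2 and GFAP) were all detected, 2 higher (SOX2 and GFAP) and 3 lower (EGFR, S100B and CD44). Of all genes tested, 25.0% were higher and 25.6% lower (edgeR adjusted p below 0.05), the share to set beside each marker count here. GFAP was low, with means of 4.83 ± 1.46 and 7.29 ± 1.09 CPM (SD, n = 3, control first, as in every pair of means below). Control libraries varied more than HSD52_OE libraries: over the 37 kinesins with a mean of at least 2 CPM the median SD of log2 CPM was 0.15 and 0.06, and it was larger in the control group for 32 of them. Levels of fibroblast markers and of nuclear-retained transcripts also differed between the groups. All 12 fibroblast markers were detected, with summed levels of 159 to 269 CPM in control and 82.1 to 86.8 CPM in HSD52_OE libraries, and 10 fell (LUM and THY1 with the smallest p) while 2 rose (FBLN1 and FAP). A list for nuclear retention and RNA quality held 9 transcripts (MALAT1, NEAT1, KCNQ1OT1, MEG3, SNHG1, GAS5, MIAT, NORAD and TUG1). They summed to 997 to 1061 and 1765 to 2033 CPM, with 7 higher (NEAT1, MALAT1 and KCNQ1OT1 with the smallest p) and MEG3 at 0. Whether these levels reflect other cells or RNA handling was not tested, nor was their part in the kinesin results.

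Among the members that passed the test, every mitotic one was higher in HSD52_OE cells and every transport one was lower. A gene is said to rise or fall where edgeR gave an adjusted p below 0.05, over the 16322 genes tested. Of all genes tested, 25.0% rose and 25.6% fell. Of the 13155 protein-coding genes tested, the biotype of every member, 2809 rose and 3959 fell. Counts were high enough to test 39 of the 46 kinesins, of which 11 rose, 11 fell and 17 did not pass. Of 13 mitotic kinesins tested 9 rose and 0 fell, and their median log2 fold change was 0.47. Of 15 transport kinesins tested 0 rose and 8 fell, with a median of -0.27. Over all genes tested the median was 0.01, and over the protein-coding ones it was -0.06. The count of 0 mitotic kinesins lower was also 0 at an unadjusted p below 0.05 and in DESeq2 and limma-voom. For transport kinesins higher the unadjusted count was 1, and DESeq2 and limma-voom each called 1, KIF5B in each. Scaling by library totals alone gave 10 mitotic kinesins higher and 0 lower, and 2 transport kinesins higher (KIF5B and KIF3B) and 6 lower, while it shifted the median of all genes by 0.12 on the log2 scale. The changes were modest: a fold of at least 2 with a call was reached by 1 kinesin, KIF26B, against 14.0% of all genes. Of the 13155 protein-coding genes, 767 rose and 493 fell by that fold. The groups did not overlap for 22 of the 39 kinesins. Apart were 9 of 13 mitotic kinesins, all higher, and 8 of 15 transport kinesins, 7 lower and KIF5B higher. Groups were apart for 58.9% of all genes tested and for 7885 of the 13155 protein-coding ones. In bulk RNA, a different share of cells in mitosis and a different amount of these messengers per cell cannot be told apart.

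**Figure D2:**
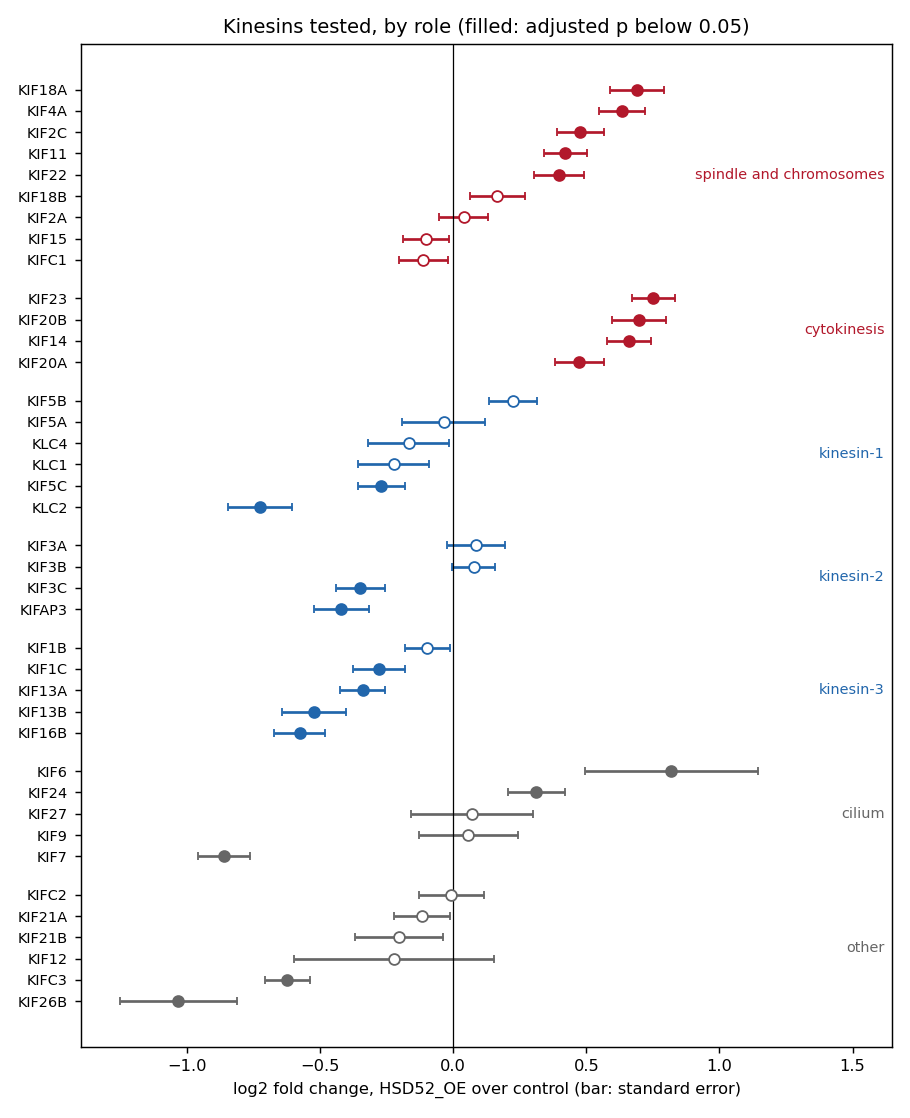
Log2 fold change (HSD52_OE over control, 3 libraries each) of the 39 kinesins tested, by role, with standard errors from edgeR. Filled points passed an adjusted p below 0.05. All 4 cytokinesis motors and 5 of 9 spindle motors lie to the right of 0 and are filled, and no filled transport kinesin does.

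Sums over each class gave the balance of both in every library. Per kilobase of gene length, which allows levels to be compared between genes, the mitotic kinesins summed to 302, 290 and 263 CPM per kb in the control libraries and to 366, 372 and 382 CPM per kb in the HSD52_OE libraries. Transport kinesins summed to 173, 164 and 163 CPM per kb against 155, 156 and 151 CPM per kb. Neither sum overlapped between the groups. Their ratio was 1.71 ± 0.0833 in control and 2.42 ± 0.0893 in HSD52_OE libraries (SD, n = 3), 1.42 times as high. Mitotic motors made up 58.2% ± 1.07 of the message of all members in control and 67.1% ± 0.848 in HSD52_OE libraries. These sums follow their most abundant members and are given as a description. KIF5B, with the highest level per length of the transport motors, was higher in every HSD52_OE library than in any control.

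**Figure D3:**
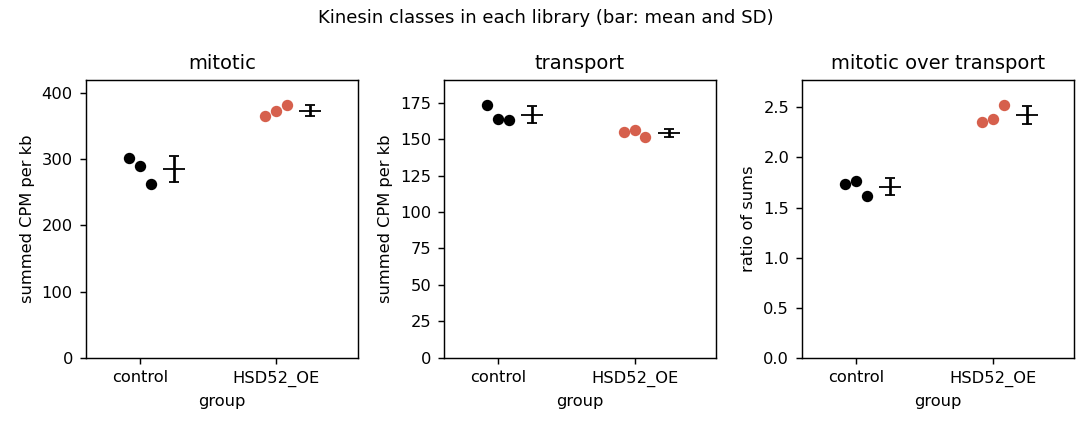
Summed level of the 15 mitotic kinesins (left) and the 17 transport kinesins (middle) in CPM per kb, and the ratio of both sums (right), in each library (points) with the group mean and SD (bars, n = 3). HSD52_OE libraries lie above the control libraries in the mitotic sum and in the ratio, and below them in the transport sum.

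All 4 cytokinesis motors rose, where 25.0% of all genes tested did. KIF23 (chromosome 15, 69414246 to 69448427) forms the centralspindlin complex that bundles the central spindle, and it had 108, 108 and 99.7 CPM in control libraries against 172, 183 and 176 CPM under overexpression. Every HSD52_OE library was above every control library. The log2 fold change was 0.75 ± 0.08 (SE, edgeR adjusted p = 2.51e-06), the smallest p of the members. KIF14 (chromosome 1, 200551497 to 200620734), which holds citron kinase at the midbody, stood at 81.1, 71.3 and 72.6 against 122, 119 and 114 CPM in control and HSD52_OE libraries. Its groups were apart in the same way, with a log2 fold change of 0.66 ± 0.08 (edgeR adjusted p = 1.27e-05). KIF20B (chromosome 10, 89701610 to 89774939), needed late in abscission, had 44.5, 41.2 and 42.9 against 80.3, 67.7 and 60.5 CPM. Here the HSD52_OE libraries differed among themselves more than the controls did, and the lowest of them was still above the highest control (log2 fold change 0.70 ± 0.10, edgeR adjusted p = 4.99e-05). KIF20A (chromosome 5, 138178719 to 138187715) brings the chromosomal passenger complex to the central spindle. It was the member with the highest level per length in control cells, at 56.8 CPM per kb. It rose from 225 ± 20.8 to 312 ± 20.3 CPM (SD, n = 3; log2 fold change 0.47 ± 0.09, edgeR adjusted p = 0.000599). Its gene overlaps BRD8 and CDC23 on the other strand, and BRD8 rose as well, by 0.72 on the log2 scale. The strand setting of the counting is not given in the sources used here, so the KIF20A value is uncertain to that extent.

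Among the spindle and chromosome motors 5 of 9 tested rose, where 25.0% of all genes tested did. KIF4A (chromosome X, 70290090 to 70420832), a chromokinesin that acts on chromosome condensation and on the central spindle, had 103, 95.7 and 87.4 CPM in control libraries against 143, 143 and 158 CPM under overexpression. The groups were apart, with a log2 fold change of 0.63 ± 0.09 (edgeR adjusted p = 2.81e-05). KIF18A (chromosome 11, 28020620 to 28108308), which damps the swing of chromosomes at the spindle equator, stood at 26.5, 22.6 and 28.6 against 42.2, 43.3 and 39.9 CPM, and its log2 fold change of 0.69 ± 0.10 was the largest of the spindle motors (edgeR adjusted p = 5.61e-05). KIF4A overlaps PDZD11 and KIF18A overlaps METTL15, both on the other strand and neither past the threshold. KIF2C (chromosome 1, 44739818 to 44767767), the depolymerase that corrects faulty chromosome attachments, had 139, 138 and 117 against 175, 182 and 191 CPM (log2 fold change 0.48 ± 0.09, edgeR adjusted p = 0.000390). KIF11 (chromosome 10, 92593286 to 92655395), the motor that pushes the spindle poles apart and a drug target in cancer, stood at 135, 121 and 132 against 174, 175 and 170.0 CPM (log2 fold change 0.42 ± 0.08, edgeR adjusted p = 0.000507). In both genes the HSD52_OE libraries lay above all control libraries. KIF22, a chromokinesin that pushes chromosome arms away from the poles, rose from 109.7 ± 13.3 to 145 ± 7.65 CPM with a log2 fold change of 0.40 ± 0.09 (edgeR adjusted p = 0.00256).

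The other 4 spindle motors tested did not pass, and their groups overlapped. KIFC1, a minus-end motor that clusters spare centrosomes, was the spindle motor with the highest level per length in control cells, at 38.2 CPM per kb. It had 137, 137 and 109 against 117, 117 and 121 CPM, with a log2 fold change of -0.11 and a 95% interval of -0.31 to 0.09. Control replicate 3 was the low library, and without it KIFC1 was called lower (log2 fold change -0.22, edgeR adjusted p = 0.0128). KIF15, which can share the work of KIF11 in keeping the spindle bipolar, had 56.0, 49.9 and 54.9 against 51.1, 50.2 and 48.4 CPM (95% interval -0.28 to 0.08). It overlaps TMEM42 on the same strand, which did not pass and had 19.0% as many counts as KIF15. For KIF18B, which trims astral microtubules, the values were 109.6, 122 and 87.5 against 119.7, 120.0 and 118 CPM (95% interval -0.05 to 0.38). The spread here was in the control group, and KIF18B was called higher without control replicate 2 (edgeR adjusted p = 0.0309) and with library totals. KIF2A, a depolymerase of the spindle poles that also acts in neurons, was at 44.9 ± 3.81 and 46.1 ± 1.76 CPM (95% interval -0.15 to 0.23), and it overlaps IPO11, which rose, and DIMT1. The 95% intervals of KIFC1 and KIF15 ended at 0.09 and 0.08 on the log2 scale, under the estimate of each of the 5 spindle motors that rose. The difference between KIF11 and KIF15 itself was not tested. The remaining mitotic members were not tested: KIF4B, an intronless copy of KIF4A whose reads are hard to tell from it, had 2 to 6 counts a library, and KIF2B had 0 in all 6.

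**Figure D4:**
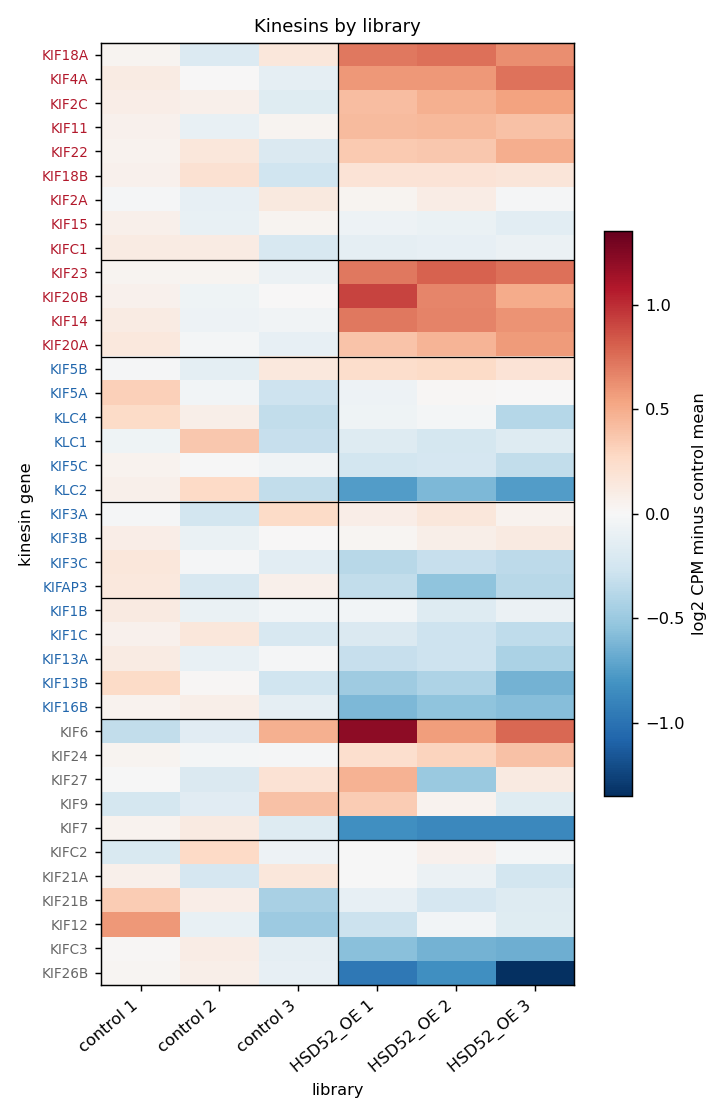
Each of the 39 kinesins tested (rows, grouped by role, mitotic in red, transport in blue, others in grey) in each library (columns), as log2 CPM minus the mean of the control libraries. The 4 cytokinesis motors are red in all 3 HSD52_OE libraries, KIF7 and KIFC3 are blue in all 3, and colour within the control group shows the spread there.

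Kinesin-1, the main cargo motor of most cells, showed its clearest change in a light chain. Light chains tie cargo to the motor. KLC2 (chromosome 11, 66257294 to 66267860) fell, with 97.7, 113 and 74.3 CPM in control libraries against 55.4, 61.3 and 55.5 CPM under overexpression. The control libraries were spread widely and lay above all HSD52_OE libraries (log2 fold change -0.72 ± 0.12, edgeR adjusted p = 0.000152). Of 69 tested genes within 1 Mb of KLC2, 27 fell and 11 rose, where 25.6% and 25.0% of all genes did. Such counts are given for some kinesins only. Near KIF13B, which fell as well, 3 of 13 tested genes fell and 2 rose. The other light chains did not pass: KLC1 had 51.2, 68.9 and 43.0 against 47.1, 45.2 and 47.3 CPM, with control replicate 2 high, and KLC4 was at 14.8 ± 2.97 and 13.2 ± 1.71 CPM. KLC1 was called lower without control replicate 3 (log2 fold change -0.37, edgeR adjusted p = 0.0103) and with no low-count filter (0.0340), and without control replicate 2 its log2 fold change was -0.02 (0.844). KLC1 and KLC4 overlap other genes whose counts are of similar size or larger. Among the heavy chains KIF5B (chromosome 10, 32009010 to 32056431), the form made in most tissues, had 260.3, 239 and 291 against 310.4, 313 and 299 CPM, with every HSD52_OE library above the controls. Its log2 fold change of 0.22 ± 0.09 missed the threshold (edgeR adjusted p = 0.0508) and passed it in 6 of 14 alternatives, 1 of them without control replicate 3. Over the 14, the adjusted p ranged from 0.00401 to 0.163. KIF5C, a heavy chain best known from neurons, fell from 42.0 ± 1.26 to 34.8 ± 1.41 CPM (log2 fold change -0.27 ± 0.09, edgeR adjusted p = 0.0177). That call was lost in 5 alternatives, with adjusted p of 0.0522 to 0.189, among them the omission of any 1 HSD52_OE library. KIF5A, the other neuronal form, had 11.5, 8.99 and 7.60 against 8.77, 9.36 and 9.24 CPM and did not pass. Per length the heavy chains were ordered KIF5B, KIF5C and KIF5A, at 44.8, 4.55 and 1.50 CPM per kb in control cells, and the order was the same in HSD52_OE cells, at 52.4, 3.77 and 1.46 CPM per kb.

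Kinesin-2 drives transport in cilia and carries other cargo in the cell body. Its core motor chains KIF3A and KIF3B did not pass the test, while the third motor chain and the adaptor fell. KIFAP3 (chromosome 1, 169921326 to 170085208), which joins the KIF3A and KIF3B pair to cargo, had 58.9, 46.2 and 56.3 against 42.4, 36.8 and 41.4 CPM (log2 fold change -0.42 ± 0.10, edgeR adjusted p = 0.00306). KIF3C (chromosome 2, 25926596 to 25982749), an alternative partner of KIF3A, had 61.9, 55.1 and 50.3 against 43.0, 44.9 and 43.4 CPM (log2 fold change -0.35 ± 0.09, edgeR adjusted p = 0.00532). Groups were apart in both. KIF3B stood at 146, 129 and 137 against 140.0, 145 and 149.7 CPM (95% interval of the log2 fold change -0.10 to 0.25), and KIF3A at 49.0, 41.8 and 59.3 against 52.9, 55.1 and 51.3 CPM (-0.15 to 0.32). Their groups overlapped, and KIF3A was called higher without control replicate 3 (log2 fold change 0.22, edgeR adjusted p = 0.0499). KIF17 had 2 to 7 counts a library and was not tested. Of the 18 genes of intraflagellar transport, the ciliary cargo trains of kinesin-2, 5 rose (WDR35, IFT81, IFT27, WDR19 and IFT80) and 3 fell (TRAF3IP1, IFT20 and IFT57). The list median was -0.08 on the log2 scale. Over all genes tested 25.0% rose and 25.6% fell. WDR35 rose from 25.5 ± 1.78 to 41.2 ± 0.319 CPM. TRAF3IP1 fell from 31.3 ± 3.04 to 20.9 ± 0.552 CPM, and the fall of IFT20 was from 22.3 ± 1.14 to 13.5 ± 2.44 CPM. The other 5 of these genes were named after their values were seen.

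Kinesin-3 motors carry vesicles and endosomes, and 4 of 5 tested fell while 0 rose. Of all genes tested 25.6% fell and 25.0% rose. KIF16B (chromosome 20, 16272104 to 16573434), a motor of early endosomes, had 38.3, 39.0 and 33.9 CPM in control libraries against 24.4, 25.3 and 24.8 CPM under overexpression. The groups stood well apart, with a log2 fold change of -0.58 ± 0.10 (edgeR adjusted p = 0.000150). KIF13B (chromosome 8, 29067279 to 29263124) fell as well, with 55.4, 46.8 and 38.4 against 33.3, 34.6 and 29.7 CPM and a wide control spread (log2 fold change -0.52 ± 0.12, edgeR adjusted p = 0.00192). KIF13A (chromosome 6, 17759183 to 17987623), which sends recycling endosomes outward, had 121, 105 and 111 against 90.6, 92.0 and 83.5 CPM (log2 fold change -0.34 ± 0.08, edgeR adjusted p = 0.00351). For KIF1C, a vesicle motor of many cell types, the groups overlapped, at 174, 186 and 144 against 146, 137 and 132 CPM. Its fall of 0.28 ± 0.10 on the log2 scale passed the test (edgeR adjusted p = 0.0241), but not in 5 alternatives, among them without control replicate 2 (0.0737) and without HSD52_OE replicate 2 (0.0861) or 3 (0.104). Among its neighbours within 1 Mb, 20 of 42 tested genes rose and 4 fell. KIF1B, a motor of mitochondria and synaptic vesicle precursors, was at 92.3 ± 6.88 and 86.3 ± 4.22 CPM and did not pass. KIF1A, the neuronal vesicle motor, had 4, 2 and 1 counts in the control libraries and 0 in each HSD52_OE library, where a count of 0 allows up to 3. It was not tested. Its neighbours within 1 Mb held 13 lower and 3 higher of 22 tested genes. Of the 12 neuron markers, 6 were abundant enough to test, with 3 higher (NEFL, GAP43 and SYP) and 2 lower (SNAP25 and MAP2), and STMN2 was at 0 in every library. Their summed level was 71.3 to 98.6 CPM in control and 70.4 to 80.3 CPM in HSD52_OE libraries, which overlap.

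The largest log2 fold changes of single members, those of KIF26B, KIF7 and KIF6, were outside both classes. KIF7 (chromosome 15, 89608789 to 89655451), which sets the tip of the primary cilium and acts in Hedgehog signalling, had 52.4, 55.2 and 44.8 CPM in control libraries against 28.5, 27.7 and 27.6 CPM under overexpression. Every HSD52_OE library lay below all controls, and they differed little among themselves (log2 fold change -0.86 ± 0.10, edgeR adjusted p = 4.56e-06). KIF7 overlaps TICRR on the other strand, which did not pass. Of 26 tested genes within 1 Mb of KIF7, 15 fell and 1 rose, where 25.6% and 25.0% of all genes did. KIF26B (chromosome 1, 245154985 to 245709431), a kinesin of WNT5A signalling thought to lack motor activity, fell from 3.89 ± 0.254 to 1.90 ± 0.340 CPM, from 65 to 72 counts a library to 30 to 42 (log2 fold change -1.03 ± 0.22, edgeR adjusted p = 0.00111). KIFC3 (chromosome 16, 57758217 to 57863053), a minus-end motor linked to cell junctions and the Golgi, had 117, 124 and 106 against 77.5, 73.9 and 72.9 CPM (log2 fold change -0.62 ± 0.08, edgeR adjusted p = 2.42e-05). In these 3 genes the groups did not overlap. Against them, 2 ciliary kinesins rose. KIF24, which restrains cilium growth at the mother centriole, had 16.0, 15.3 and 15.3 against 18.2, 19.2 and 20.5 CPM (log2 fold change 0.31 ± 0.11, edgeR adjusted p = 0.0236), a call lost without HSD52_OE replicate 2 (0.0698) or 3 (0.115) and with no low-count filter (0.0996). It overlaps UBAP1, which fell. KIF6, a kinesin of ependymal cilia, rose from 13 to 24 counts to 27 to 41 counts a library. Its log2 fold change of 0.82 ± 0.32 was close to the threshold (edgeR adjusted p = 0.0453) and lost its call in 6 alternatives, 4 of them the omission of control replicate 1 or 2 or HSD52_OE replicate 1 or 3 (up to 0.213).

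The remaining kinesins did not pass, and their groups overlapped. KIF9 and KIF27, both linked to cilia, did not pass: KIF9 was at 7.31 ± 1.85 and 7.63 ± 1.36 CPM and KIF27 had 3.97, 3.47 and 4.55 against 5.49, 2.81 and 4.32 CPM. KIF9 overlaps KLHL18, which has more counts and fell. KIF21A and KIF21B, which restrain microtubule growth, were at 45.7 ± 6.11 and 42.1 ± 3.50 CPM and at 12.2 ± 3.20 and 10.6 ± 0.444 CPM, and KIF21B was called lower without control replicate 3 (edgeR adjusted p = 0.0190). KIFC2 was at 19.9 ± 3.48 and 19.8 ± 0.625 CPM, with a 95% interval of -0.27 to 0.25 for the log2 fold change. Of its 56 tested neighbours within 1 Mb, 31 fell and 7 rose, where 25.6% and 25.0% of all genes did. KIF12 was at 0.897 ± 0.348 and 0.765 ± 0.0664 CPM. KIF25, KIF26A and KIF19 were not tested, with up to 3 counts, up to 1 count and 0 counts a library.

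Partners of the mitotic kinesins rose more often than they fell: 13 of 20 were higher and 2 lower (median log2 fold change 0.32). Of all genes tested 25.0% were higher and 25.6% lower. HMMR, which binds spindle microtubules, rose from 74.7 ± 6.73 to 166 ± 3.70 CPM, ASPM, a spindle pole protein, from 109 ± 9.39 to 243 ± 26.9 CPM, and ECT2, the exchange factor that starts the cleavage furrow, from 89.2 ± 6.58 to 132 ± 3.21 CPM. RACGAP1, the partner of KIF23 in centralspindlin, rose from 165 ± 10.9 to 218 ± 5.04 CPM, and the 2 that fell were SPAG5 and BIRC5, survivin of the chromosomal passenger complex, by 0.36 and 0.37 on the log2 scale; these 3, and the subunits in the next sentence, were named after their values were seen. In the chromosomal passenger complex, the fall of BIRC5 stood against AURKB, INCENP and CDCA8, which rose by 0.23, 0.36 and 0.22. PRC1, the microtubule bundler that recruits KIF4A, was counted at 47 to 54 reads in every library, with 1 other gene of its strand over the same bases.

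Cell cycle genes outside the members gave the frame for these values, where 25.0% of all genes rose and 25.6% fell. The G2/M list holds CENPE, a mitotic kinesin whose symbol the member rule does not match. Of 30 G2/M genes 23 rose and 2 fell (MYBL2 and CDC25B), with a list median of 0.49 on the log2 scale, close to the 0.47 of the mitotic kinesins. CDCA3, CKAP2 and NDC80 had the smallest p and rose by 0.89 ± 0.09, 0.89 ± 0.10 and 0.82 ± 0.09 on that scale. Among 30 genes of the G1/S step and of replication, 21 fell and 2 rose, with a median of -0.45. Those with the smallest p, MCM6, CDT1 and E2F1, fell by 0.71 ± 0.08, 0.86 ± 0.10 and 0.87 ± 0.10. The G2/M and G1/S lists had shown this division in earlier results of the same libraries and are not independent support.

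On the transport side, 13 of 21 tested adaptors fell and 2 rose (median log2 fold change -0.35), where 25.0% and 25.6% of all genes rose and fell. Of 13155 protein-coding genes tested, 2809 rose and 3959 fell. MAPK8IP2, a scaffold that binds kinesin light chains, fell from 6.77 ± 0.854 to 2.60 ± 0.360 CPM, and RAB27B, a vesicle GTPase, from 7.20 ± 0.987 to 3.31 ± 0.255 CPM. The 2 that rose, MAPK8IP3 and SPAG9, are related scaffolds that link kinesin-1 and dynein to cargo. MAPK8IP3 rose from 47.4 ± 12.6 to 88.5 ± 5.07 CPM, and SPAG9, named after its values were seen, from 119 ± 11.9 to 154 ± 8.81 CPM. Cytoplasmic dynein and dynactin, which move cargo the opposite way, were mixed, with 5 of 23 higher and 7 lower and a median of 0.02. DYNLRB1, a dynein light chain, fell from 179 ± 16.7 to 126 ± 1.58 CPM. DYNLL1, another light chain, went from 224 ± 20.7 to 162 ± 7.70 CPM and the dynactin subunit DCTN3 from 76.4 ± 3.22 to 56.8 ± 2.18 CPM, both past the threshold. Of 16 tubulin genes tested 5 rose and 8 fell (median -0.16). TUBB2A fell from 77.1 ± 6.42 to 45.3 ± 2.48 CPM. TUBG1, the gamma-tubulin of microtubule nucleation, dropped from 131 ± 10.2 to 89.9 ± 1.97 CPM and TUBB2B from 71.9 ± 5.57 to 50.1 ± 1.30 CPM. TUBB2A and TUBB2B are close copies that may share reads.

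**Figure D5:**
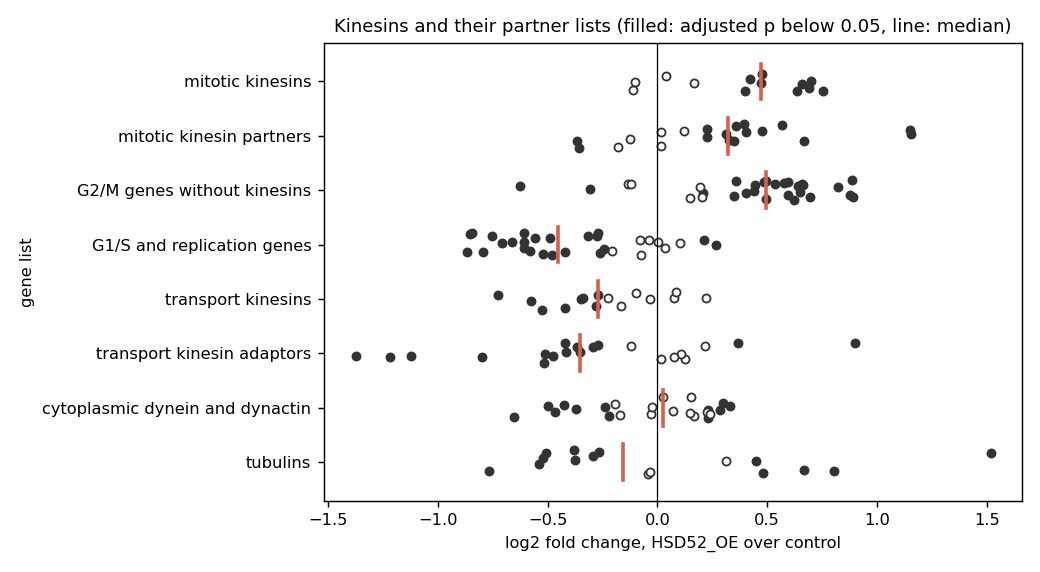
Log2 fold change (HSD52_OE over control) of every tested gene of the 2 kinesin classes and of the partner and cell cycle lists, 1 point a gene, filled where the adjusted p was below 0.05, with the list median as a line. Medians lie at 0.47, 0.32 and 0.49 for the mitotic kinesins, their partners and the G2/M genes, and at -0.27 and -0.35 for the transport kinesins and their adaptors. The G2/M list, labelled as without kinesins, holds the kinesin CENPE.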

How the data were processed

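The authors deposited a table of whole-number counts for 6 libraries, not normalized. Reads, per the submitters' processing notes, were aligned by HISAT2 2.0.5 to hg38 and counted with featureCounts 1.5.0-p3. Not given in the sources used here: annotation release, strand setting and read filters. Symbols, biotypes, lengths and coordinates were taken as deposited.

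All 58735 genes entered 1 fit of HSD52_OE against control, with 3 libraries in each group. Genes were filtered with filterByExpr, scaled by TMM and tested by the quasi-likelihood method of edgeR 4.0.16 (R 4.3.3, robust, 2-sided, group alone), with Benjamini-Hochberg adjustment over the 16322 genes tested. Standard errors and 95% intervals came from the same test. The fit was also run on simulated counts that gave each gene the same dispersion in both groups. Control libraries here varied more than HSD52_OE libraries, so that run does not show how the fit performs under unequal spread. CPM were TMM-scaled, and CPM per kb were divided by the deposited gene length. Library pairs differed by more than sampling noise, and no library was merged.

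The members, roles and 11 gene lists were chosen with earlier results of these data known. Every member is described. Named with full values by rule were the 4 members of each role with the smallest p, those with a fold of at least 2, those against the trend of their role, and the 3 genes of each list with the smallest p. Lists were described by counts and medians without a test. Promoters came from RefSeq. The alternatives were RLE factors, library totals, 2 other filters, DESeq2 1.42.0, limma-voom (limma 3.58.1), a replicate block, each library left out and protein-coding genes alone.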

Additional observations from a re-analysis of the deposited data

How the results depend on the processing

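Of the 22 kinesins called, 18 kept their direction and call in all 14 alternatives, and KIF5C, KIF1C, KIF24 and KIF6 lost the call in some. None of the 22 changed sign. The median log2 fold change of mitotic minus transport kinesins, 0.74, ranged from 0.67 to 0.79. Mitotic kinesins called lower were 0 to 1 with each library left out. Transport kinesins called higher were 2 with library totals, 1 each with the filter of 1 CPM in 3 libraries, DESeq2, limma-voom and protein-coding genes alone, and 0 to 2 with each library left out. Library totals raised the median of all genes from 0.01 to 0.13 on the log2 scale and gave 5337 higher and 2933 lower genes against 4086 and 4173. The cause of these changes was not tested.

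Changes of sign were seen only in kinesins that had not passed the test. With library totals they gave 0.0217 for KIF15, 0.0156 for KIFC1, 0.0919 for KIF5A, 0.0284 for KIF1B, 0.0056 for KIF21A and 0.12 for KIFC2. KIFC2 was also at 0.0186 with the filter of 1 CPM, 0.0058 in limma-voom, 0.0508 with protein-coding genes alone and 0.0031 with the replicate block. KIF5A was at 0.023 with protein-coding genes alone and KIF2A at -0.0029 with no low-count filter. With each library left out, log2 fold changes ran from -0.0241 to 0.0987 for KIF2A, -0.035 to 0.22 for KIF3A, -0.17 to 0.12 for KIF5A, -0.17 to 0.29 for KIF27, -0.0916 to 0.28 for KIF9, -0.44 to 0.11 for KIF12 and -0.12 to 0.13 for KIFC2.

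The replicate numbers are not stated to pair libraries. Same-numbered libraries deviated together only weakly (r over genes of 0.03 to 0.04), though each correlated best with its own number, a hint from the data and not the design. With the replicate block, 11 kinesins rose and 11 fell, and 4210 genes rose and 4226 fell. Depth limits the 7 members that were not tested and KIF6 and KIF12.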

Other observations

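Some genes related to the kinesins are not members. CENPE, a mitotic kinesin without a KIF symbol, was counted in the G2/M list. KIF28P, a pseudogene of the kinesin-3 family, had 3 counts in each control library and 10, 9 and 16 under overexpression, and it was not tested. KLC3, the fourth light chain gene, had 0 to 2 counts a library. KIF1BP, whose protein binds and restrains several kinesins, had 660 to 670 counts in controls and 606 to 682 under overexpression and did not pass (log2 fold change -0.15 ± 0.10, edgeR adjusted p = 0.198).

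PRC1 is a major partner of KIF4A, and its low count stood out beside KIF4A itself, at 2.73 ± 0.163 CPM in control cells. A gene of the same strand, AC068831.7 (chromosome 15, 90966190 to 91022566), spans the PRC1 body from 90966038 to 90995629 apart from its last bases. It had 59, 96 and 97 counts in controls and 234, 257 and 253 under overexpression, a log2 fold change of 1.44 ± 0.17 (edgeR adjusted p = 5.31e-06), while PRC1 was at 0.02 ± 0.21. How reads shared by both genes were counted is not given in the sources used here, so the PRC1 value may not be the level of its messenger. Both genes were named after their values were seen.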
